A study of Mus musculus with 18 samples.

Results

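The MHC class II antigen presentation genes are 8 of the 53465 genes counted in this series: H2-Aa, H2-Ab1, H2-Eb1, H2-DMa, H2-DMb1, H2-DMb2, Cd74 and Ciita. They were chosen by name, by matching the Ensembl gene identifiers of the count files to mouse gene symbols, and all 8 were found. Gene counts came from RNA sequencing of skeletal muscle (SKM), white fat (WAT) and brown fat (BAT) of wild-type C57BL/6J mice, with 3 libraries in each of 6 groups. Each tissue had a vehicle arm and a quercetin arm. Quercetin, a plant flavonol, was given by gavage at 0.125 mg/kg. The gavage volume of 100 µL was PEG400 at 10% in phosphate-buffered saline, which the vehicle arm received without the flavonol. The series describes the treatment as long-term and low-dose. A start at 14 months of age in male mice is stated for the lifespan experiment, and the age, sex and treatment length of the sequenced mice, the muscle taken and the white fat depot were not stated in the labels.

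MHC class II molecules carry peptides of extracellular origin to the surface of antigen-presenting cells, where CD4 T cells read them. H2-Aa and H2-Ab1 encode the chains of I-A, and H2-Eb1 the beta chain of I-E. The invariant chain Cd74 guides new class II molecules to the endosome and blocks their groove, and H2-DM (H2-DMa with H2-DMb1 or H2-DMb2) exchanges the last piece of Cd74 for peptide. Ciita is the transcriptional coactivator on which expression of the whole family depends. In fat and muscle these genes are known mainly from resident macrophages, dendritic cells and B cells. Mice of the C57BL/6 background have a defective H2-Ea gene, and H2-Ea was counted at 0 in all 12 SKM and BAT libraries and at no more than 2 reads in a WAT library.

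The H2 genes lie in the MHC on chromosome 17 of GRCm38: H2-DMa at chr17:34119541-34139101, H2-DMb2 at chr17:34143307-34151555, H2-DMb1 at chr17:34153072-34160230, H2-Ab1 at chr17:34257689-34269419, H2-Aa at chr17:34282744-34287823 and H2-Eb1 at chr17:34305867-34316674. Ciita lies at chr16:10480059-10528418, and Cd74 outside the MHC. Class II promoters are known for an X box, bound by the RFX complex and CREB, followed at a set distance by a Y box with a reversed CCAAT motif, bound by NF-Y, and Ciita acts through the proteins bound there. RefSeq promoters of 300 bases (GRCm38.p6, 250 before to 50 after the start site) were at hand for 5 of the 8 members. The following 3 stretches are shown because they hold that arrangement at genes the comparisons turn on. Capitals mark the X element (CNGATGATG, or TGACGTCA in H2-Aa) and the Y element (ATTGG). The sequences run 5′ to 3′ on the strand of the gene, from chr17:34145118-34145175 (plus strand, within the annotated span of H2-DMb2 but outside its exons), chr17:34287855-34287909 (minus strand, before H2-Aa) and chr17:34305768-34305824 (plus strand, before H2-Eb1).
H2-DMb2: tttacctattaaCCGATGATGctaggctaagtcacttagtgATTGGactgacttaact
H2-Aa: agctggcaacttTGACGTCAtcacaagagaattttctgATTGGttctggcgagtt
H2-Eb1: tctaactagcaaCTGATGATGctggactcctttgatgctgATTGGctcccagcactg
The X and Y elements were 20 bases apart in H2-DMb2, 18 in H2-Aa and 19 in H2-Eb1, and H2-DMb1 had CNGATGATG and ATTGG 20 bases apart as well. Of all 32851 promoters of this length, on either strand, 0.956% held CNGATGATG, 1.79% held TGACGTCA and 37.4% held ATTGG. An X element followed within 40 bases by ATTGG on the strand of the gene was found in 0.134%. The letters searched were chosen after these promoters had been seen, and a match is a description of sequence only. The promoter of H2-DMa held ATTGG and neither X element.

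Library totals ran from 8436308 to 12311345 counts in genes. Levels are given in CPM, the count of a gene relative to its library total, scaled by TMM factors over the 18 libraries. Several libraries stood apart. The 6 skeletal muscle fibre markers summed to between 62903 and 113937 CPM in SKM, and to 27347 CPM in BAT quercetin 3. They summed to 4783 CPM in BAT vehicle 1, 1643 CPM in BAT vehicle 3 and 924 CPM in WAT vehicle 2. BAT vehicle 1 and BAT vehicle 3 were not among the libraries later left out for such transcripts, and WAT vehicle 2 was. The 6 adipocyte markers summed to between 647 and 38576 CPM in WAT. The lowest of these was the library labelled WAT vehicle 2, below every muscle library. In SKM the adipocyte markers ran from 1266 to 7252 CPM, with the highest in vehicle 3. The 4 brown adipocyte markers summed to between 1635 and 8841 CPM in BAT, with the lowest in BAT quercetin 3, and reached 514 CPM in SKM quercetin 2. The 3 libraries SKM quercetin 3, WAT vehicle 1 and WAT quercetin 2 came from flow cell H7GKJDSXX, and the other 15 from H7H2WDSXX. The sources used here do not say whether the libraries of a group come from separate mice. The p-values thus measure only the spread between these libraries, which may not be a spread between mice. Between libraries of a group it exceeded counting error, with a chi-square per degree of freedom of 27.6 to 381.

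The members were highest in 4 of the 6 WAT libraries and close to each other in SKM and BAT. All 8 together held 0.0128% of gene counts in WAT vehicle 1, 1.23% in vehicle 2 and 0.831% in vehicle 3. With quercetin, WAT held 1.29%, 0.153% and 0.412% in replicates 1, 2 and 3. The WAT libraries of flow cell H7GKJDSXX, vehicle 1 and quercetin 2, were thus the lowest of the tissue, whichever arm they belonged to. The share was between 0.00110 and 0.0422% in SKM and between 0.00839 and 0.0370% in BAT. SKM vehicle 1 was the lowest library of all, with 128 counts over the 8 genes (95% exact binomial interval of its share, 0.000919 to 0.00131%). Intervals here cover counting error only.

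Among the class II chains, H2-Ab1, the beta chain of I-A, was highest in the same WAT libraries as the members together. In SKM it measured 4.31, 49.6 and 69.5 CPM with vehicle and 129, 74.6 and 125 CPM with quercetin, in replicates 1 to 3. In WAT it measured 32.4, 2307 and 1540 CPM with vehicle and 2081, 339 and 770 CPM with quercetin. In BAT it measured 23.5, 48.5 and 97.2 CPM with vehicle and 78.9, 75.4 and 89.5 CPM with quercetin. The arms of SKM did not overlap on this scale, with SKM vehicle 1 far below the other muscle libraries, and the arms of WAT and BAT did overlap. H2-Aa, the alpha chain of I-A, ran from 3.61 to 84.5 CPM in SKM, from 19.6 to 1694 CPM in WAT and from 12.6 to 88.9 CPM in BAT. H2-Eb1, the beta chain of I-E, ran from 2.91 to 91.3 CPM in SKM, from 30.5 to 1960 CPM in WAT and from 24.7 to 98.2 CPM in BAT. Both had their lowest SKM level in vehicle 1, their lowest WAT level in vehicle 1 and their lowest BAT level in vehicle 1.

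Cd74, the invariant chain, followed the class II chains. It measured 3.61, 59.8 and 73.9 CPM in SKM with vehicle and 132, 71.4 and 137 CPM with quercetin. It measured 31.5, 2785 and 1780 CPM in WAT with vehicle and 2779, 342 and 838 CPM with quercetin. It measured 17.3, 55.8 and 95.9 CPM in BAT with vehicle and 69.0, 81.0 and 112 CPM with quercetin. The arms of Cd74 overlapped in all 3 tissues, in SKM because quercetin 2 lay between vehicle 2 and vehicle 3.

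The chains of the peptide exchanger H2-DM were counted at lower levels than the class II chains. H2-DMa measured 0.233, 2.65 and 2.99 CPM in SKM with vehicle and 7.21, 3.97 and 8.21 CPM with quercetin. In WAT it measured 2.62, 178 and 109 CPM with vehicle and 199, 17.9 and 54.2 CPM with quercetin, and in BAT it ran from 2.0 to 7.42 CPM. H2-DMb1 ran from 0.233 to 6.58 CPM in SKM, from 3.05 to 156 CPM in WAT and from 2.91 to 12.9 CPM in BAT. The SKM arms of both genes did not overlap, and their 4 high WAT libraries were those of the class II chains. Brd2 on the opposite strand overlaps 10.44% of the exon length of H2-DMa, and the strand setting of the counting is not given in the sources used here, so a part of its reads may belong to Brd2.

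H2-DMb2 had the sharpest contrast between libraries of the family. In WAT it measured 0, 382 and 178 CPM with vehicle and 395, 2.04 and 90.9 CPM with quercetin. In SKM it measured 0, 0.120 and 0.323 CPM with vehicle and 1.05, 0.248 and 2.78 CPM with quercetin, the last from 20 reads. In BAT it did not exceed 0.809 CPM, and BAT vehicle 2 and quercetin 1 had no read. A library at 0 here allows a level of up to 0.327 CPM (3 reads) in WAT vehicle 1 and 0.433 CPM in BAT vehicle 2.

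Ciita, the coactivator, was low outside the 4 WAT libraries. It measured 0, 2.05 and 1.29 CPM in SKM with vehicle and 4.28, 1.49 and 1.67 CPM with quercetin, and between 0.501 and 1.92 CPM in BAT. In WAT it measured 0.218, 159 and 92.5 CPM with vehicle and 128, 6.93 and 66.5 CPM with quercetin. SKM vehicle 1 had no Ciita read, which allows up to 0.349 CPM, and WAT vehicle 1 had 2 reads. Dexi on the opposite strand overlaps 3.45% of its exon length.

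**Figure D1:**
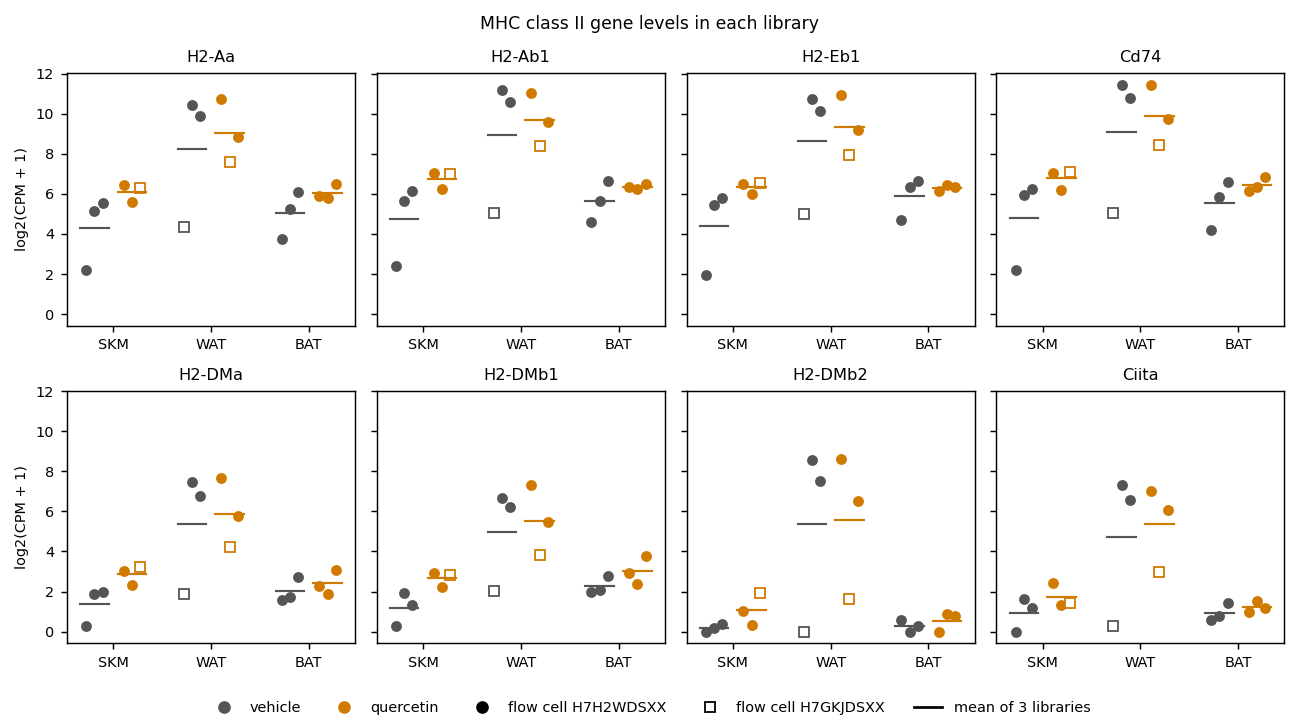
Levels of the 8 MHC class II genes in each of the 18 libraries, on a log2(CPM + 1) scale. Points are libraries in replicate order, lines are means of 3 libraries, and open squares are libraries of flow cell H7GKJDSXX. In WAT the 4 filled points of each gene lie above both open squares, and in SKM the lowest point of each gene is vehicle 1.

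Levels were compared between genes per kilobase, and the order depended on the length used, the second length having been added after seeing the data. By the union of annotated exons Cd74 came first in all 3 tissues, with a median of 780 CPM per kb in WAT, 43.3 in SKM and 44.7 in BAT. By the longest coding transcript H2-Ab1 came first in all 3 tissues and Cd74 second, with medians of 953 and 929 CPM per kb in WAT. H2-DMb2 changed place by either length, being the fifth of the 8 genes in WAT, the last in SKM and the seventh in BAT. The medians of neighbours such as H2-Ab1 and H2-Eb1 in WAT, 450 and 437 CPM per kb of union exons, lay well within their ranges over the libraries (12.6 to 898 and 15.7 to 1008 CPM per kb).

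The class II chains and Cd74 kept their proportions while their levels moved. The log2 ratio of H2-Ab1 to H2-Aa had a median of 0.62 over the 18 libraries and an SD of 0.23. That of Cd74 to H2-Ab1 had a median of 0.10 and an SD of 0.21, and that of H2-Eb1 to H2-Aa a median of 0.30 and an SD of 0.34. The ratios to H2-Ab1 were looser for H2-DMa (SD 0.37), H2-DMb1 (SD 0.62) and Ciita (SD 0.96). For H2-DMb2 the SD was 2.39, with a range from -10.13 to -2.40. The ratios were taken on counts with 0.5 added, so that those of genes with few reads hold more counting error.

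H2-DMb1 and H2-DMb2 are neighbouring genes for near-identical beta chains, and 27.2% of the 50-base stretches of the longest H2-DMb1 transcript occur in H2-DMb2, so part of their reads cannot be told apart. H2-DMb2 gave 79.4% of the reads of the pair in WAT vehicle 2 (95% exact binomial interval 78.3 to 80.4%) and 71.1% in vehicle 3 (69.5 to 72.6%). With quercetin it gave 71.6% in WAT replicate 1 (70.6 to 72.7%) and 67.9% in replicate 3 (65.7 to 70.0%). It gave 0 of 28 reads in WAT vehicle 1 (0 to 12.3%) and 13.3% of 211 reads in WAT quercetin 2 (9.0 to 18.6%). H2-DMb2 was thus the larger of the pair in the 4 WAT libraries with high class II levels, and H2-DMb1 in the remaining 14 libraries. In those 14 the H2-DMb2 share was highest in SKM quercetin 3, at 31.3% (20.2 to 44.1%), and it reached 16.3% in BAT. SKM vehicle 1 had 2 reads in all and gives no usable share.

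**Figure D2:**
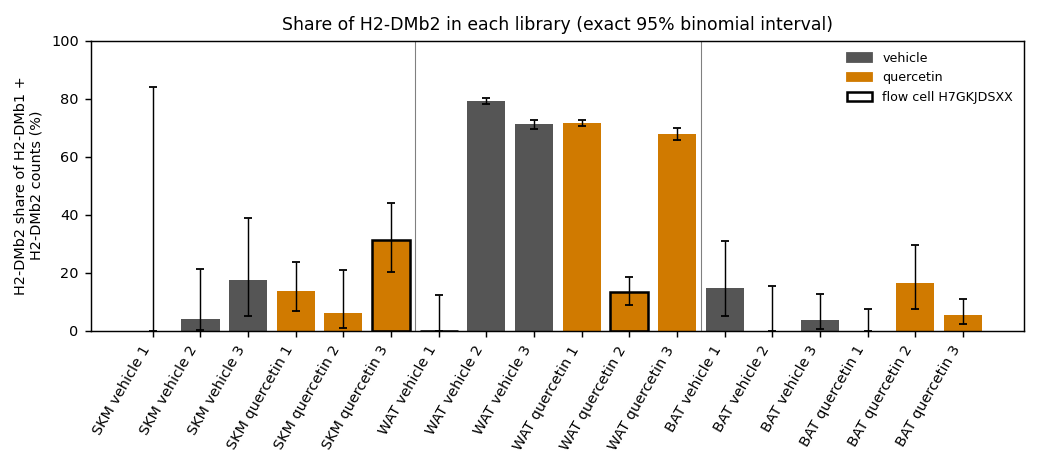
Share of H2-DMb2 in the reads counted to H2-DMb1 and H2-DMb2, as a percentage in each library, with exact 95% binomial intervals and outlined bars for flow cell H7GKJDSXX. The 4 tall bars, from 67.9 to 79.4%, are WAT vehicle 2, WAT vehicle 3, WAT quercetin 1 and WAT quercetin 3.

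Markers of B cells, T cells and lymph nodes moved with the members in WAT. The 8 B cell markers summed to 2973, 1434, 3701 and 719 CPM in the 4 high libraries, WAT vehicle 2, vehicle 3, quercetin 1 and quercetin 3. They summed to 1.53 CPM in WAT vehicle 1 and 4.09 CPM in WAT quercetin 2, within the range of SKM and BAT (0.582 to 6.40 CPM). All 8 were detected in the 4 high libraries, and Ms4a1 (CD20), Pax5 and Fcmr were at 0 in WAT vehicle 1. The 8 T cell markers summed to between 431 and 673 CPM in the 4 libraries, and to 3.92 and 8.10 CPM in WAT vehicle 1 and quercetin 2. The 7 markers listed as lymph node stroma summed to 394 to 811 CPM in the 4 libraries, against 98.8 and 205 CPM in WAT vehicle 1 and quercetin 2. The list includes Cr2 and Fcer2a, which B cells also express, so it is not separate from the B cell markers. WAT vehicle 1 and quercetin 2 each lacked any read of 4 of the 7. These were Ccl19, Ccl21a, Glycam1 and Fcer2a in vehicle 1, and Ccl21a, Glycam1, Cr2 and Fcer2a in quercetin 2. Glycam1, made by the high endothelial venules of lymph nodes, was among them in both. It measured 14.6 to 48.6 CPM in the 4 high libraries. In BAT vehicle 1 the 7 markers summed to 144 CPM. The 9 dendritic cell markers summed to 175 to 310 CPM in the 4 libraries against 54.9 and 68.7 CPM, a smaller difference. The 12 macrophage and monocyte markers did not separate them, with 1427 to 2632 CPM in the 4 libraries against 1184 and 2571 CPM. The part of lymphoid tissue in the WAT levels of the members was not tested, and it cannot be told apart from flow cell, which divides the 6 libraries in the same way. Nor can more cells of a type be told apart from more class II RNA per cell in these bulk samples.

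In SKM, the 5 pan-leukocyte markers summed to 5.94 CPM in vehicle 1 and to between 48.6 and 99.0 CPM in the other 5 libraries. Those 5 markers, all 8 members and 10 of the 12 macrophage and monocyte markers were lowest in SKM vehicle 1, against 38.8% of the 13562 genes tested in muscle. So were all 4 fibroblast markers, which summed to 315 CPM there and to 872 to 1656 CPM in the other 5. Of the 4 endothelial markers 0 were lowest there. The 8 B cell markers came to no more than 6.40 CPM in SKM, where the 12 macrophage and monocyte markers ran from 164 to 993 CPM. In BAT the B cell markers stayed at or below 4.39 CPM and the macrophage and monocyte markers ran from 326 to 1087 CPM. Their part in the class II levels of these tissues was not tested.

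**Figure D3:**
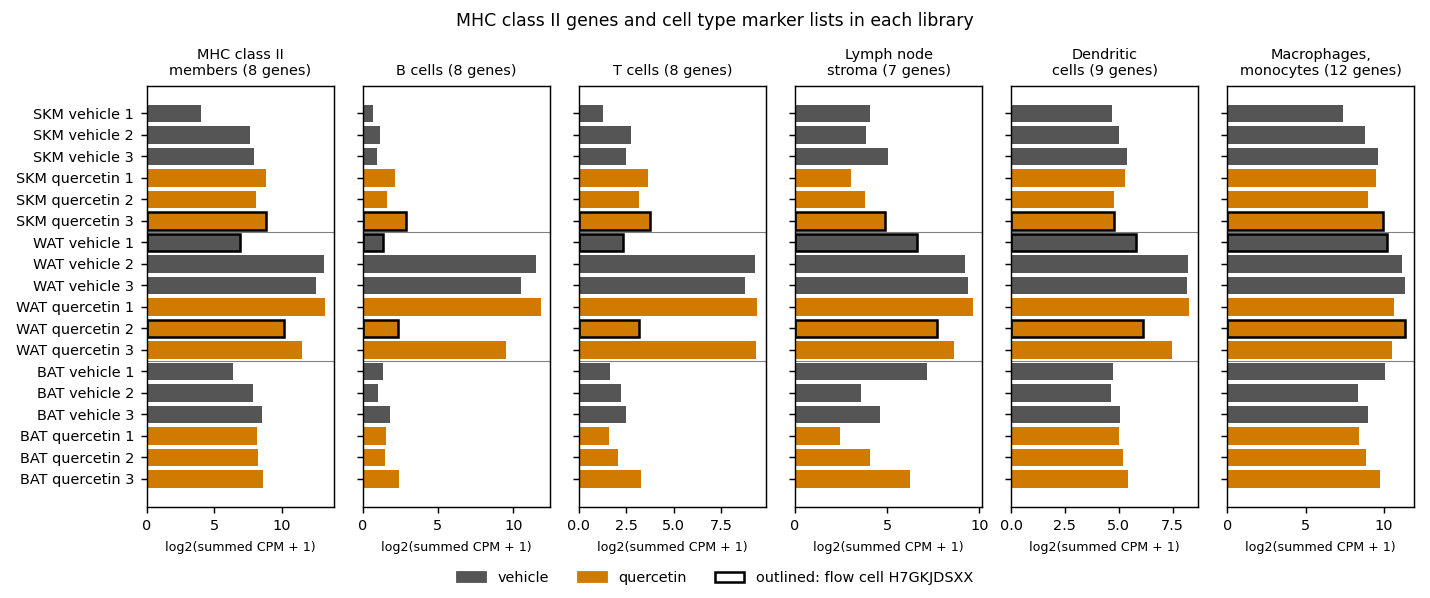
Summed levels of the 8 MHC class II genes and of 5 cell type marker lists in each library, on a log2(summed CPM + 1) scale, with outlined bars for flow cell H7GKJDSXX. The members, the B cell and the T cell markers are high in the same 4 WAT libraries, while the macrophage and monocyte markers are as high in WAT quercetin 2 (2571 CPM) as in those.

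Genes most like the members were ranked outside the class II and class I pathway genes, and the cell type markers were eligible. Over the 18 libraries, log2 levels followed the mean of the members most closely for Cd48, a leukocyte surface adhesion molecule (Pearson r = 0.980). Nemp2 (0.978) and Sash3, a lymphocyte signalling adaptor (0.975), followed. Next came Arap1, Fgd2, Map4k1 (a kinase of blood cells), Plxnc1, Cnr2 (a cannabinoid receptor of immune cells), Pold1 and Adcy7, with r between 0.970 and 0.974. Cd48 averaged 1.64 CPM in SKM, 31.4 CPM in WAT and 2.39 CPM in BAT. After the mean of each tissue and arm was subtracted, Kmo (0.975), Cd48 (0.970) and Nemp2 (0.968) came first. Of the members themselves, each followed the mean of the other 7 with r between 0.969 and 0.993, except H2-DMb2 at 0.929. These values share the 4 high WAT libraries and are a description of the 18 libraries.

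WAT was compared with SKM over both arms, in 1 edgeR fit of the 18 libraries. All 8 members were higher in WAT, against 28.6% of the 16388 genes tested that were called higher. The median log2 difference of the 8 was 4.39, and that of all genes 0.24. H2-DMb2 differed most, by 8.48 ± 1.56 (SE, adjusted p = 0.000499), and Ciita by 5.48 ± 1.08 (adjusted p = 0.000778). H2-DMa differed by 4.70 ± 0.86 and H2-DMb1 by 4.48 ± 0.79, and the class II chains and Cd74 by between 4.13 and 4.30, with adjusted p of 0.00139 or less. Leaving out WAT quercetin 1 gave the smallest difference for each of the 8, from 3.49 for H2-Aa to 7.55 for H2-DMb2, and each stayed below the threshold of 0.05 whichever library was left out.

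The difference depended on which WAT libraries were used. Set against SKM, the WAT libraries of flow cell H7GKJDSXX alone, 1 in each arm, gave a median difference of 0.59. The median of all genes was 0.001 in this alternative, which was chosen after seeing the data. There H2-DMb2 was at -1.56 and Ciita at -0.41, and the other 6 lay between 0.47 and 1.15. With flow cell H7H2WDSXX alone, all 8 lay above 0, with a median of 4.96 against 0.11 for all genes. In vehicle libraries alone, all 7 members that could be tested lay above 0, with a median of 5.12 against 0.13 for all genes.

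BAT was lower than WAT in all 8 members, against 22% of the 16388 genes tested that were called lower. The median log2 difference was -4.23, and that of all genes -0.13. H2-DMb2 fell by 8.81 ± 1.58 (SE, adjusted p = 0.000713) and Ciita by 6.00 ± 1.11 (adjusted p = 0.000868). H2-DMb1 differed least, by -3.51 ± 0.75 (adjusted p = 0.00219), and the largest adjusted p was 0.00303, for H2-Eb1. All 8 stayed below the threshold whichever library was left out. The WAT libraries of flow cell H7GKJDSXX alone, 1 in each arm, gave a median of -0.25 for the members and 0.04 for all genes. H2-DMb2 was then at 1.22. In vehicle libraries alone 1 of the 7 members tested was called lower in edgeR, H2-DMa (adjusted p = 0.0481), against 634 of 14556 genes. The median of the 7 was -4.61, and all 7 had an unadjusted p under 0.05. The comparisons with WAT share the WAT libraries.

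BAT and SKM were not told apart by the members. In edgeR 0 of the 8 members were called, against 27.2% of the 16388 genes tested that were called in either direction, and 0 had an unadjusted p under 0.05. The median log2 difference, BAT over SKM, was 0.08, with 5 members above 0 and 3 below. H2-DMb1 stood highest, at 0.96 with a 95% interval from -0.57 to 2.49 (adjusted p = 0.359), and Cd74 was at -0.04 (-1.74 to 1.67). The intervals of the class II chains reached to between 1.59 and 2.09 on the upper side.

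**Figure D4:**
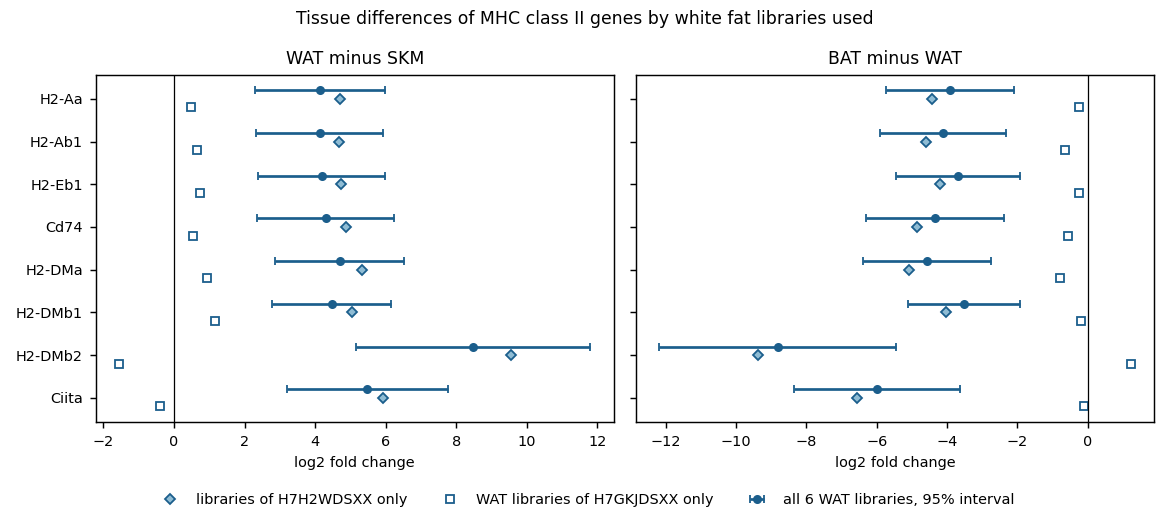
Log2 fold change of each MHC class II gene between WAT and SKM (left) and between BAT and WAT (right). Filled circles with 95% intervals use all 6 WAT libraries, diamonds the libraries of flow cell H7H2WDSXX, and open squares only the WAT libraries of flow cell H7GKJDSXX. The squares lie between -1.56 and 1.22 and the circles at 4.13 to 8.48 for WAT over SKM and at -8.81 to -3.51 for BAT over WAT.

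The rest of the class II pathway, 31 genes of which 29 were tested over the 18 libraries, was compared between tissues in the same fit. WAT was higher than SKM in 19 and lower in 1 (median 1.25), against 28.6% and 21.7% of all genes. BAT was lower than WAT in 16 and higher in 2 (median -1.04), against 22% and 18.3% of all genes. With the WAT libraries of flow cell H7GKJDSXX alone, 1 in each arm, 27 could be tested. Their median was 0.58 for WAT over SKM, against 0.001 for all genes. For BAT over WAT it was -0.31, against 0.04 for all genes. Cd86, a costimulatory ligand, was higher in WAT than in SKM by 4.46 ± 0.70 (adjusted p = 0.000152), and H2-Ob, the beta chain of the DM inhibitor H2-O, by 9.35 ± 1.54 (adjusted p = 0.000225). The costimulatory receptor Cd40 was higher by 5.04 ± 0.84 and Spi1, the myeloid and B cell factor PU.1, by 3.46 ± 0.65. Against BAT, the 4 genes with the smallest p were H2-Ob at -9.49 ± 1.54, Cd86 at -3.92 ± 0.67, Ifi30, the lysosomal thiol reductase, at -2.97 ± 0.58 and Irf8, a factor of dendritic and B cells, at -3.49 ± 0.68. H2-Ob measured 304, 167, 413 and 78.5 CPM in the 4 high WAT libraries, and 0.218 and 0.657 CPM in WAT vehicle 1 and quercetin 2.

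The RFX subunit Rfx5 measured 13.0 to 25.7 CPM in the 4 high WAT libraries and 7.52 and 7.37 CPM in vehicle 1 and quercetin 2. Its partner Rfxap stayed between 16.7 and 20.4 CPM in all 6. Between BAT and SKM, 2 of the 29 were higher and 3 lower in BAT, against 13.9% and 13.3% of all genes. The 4 with the smallest p were the endosomal protease Ctsb at 1.68 ± 0.32 (adjusted p = 0.00143), the NF-Y subunit Nfyb at -0.85 ± 0.20, Rfxap at -0.58 ± 0.17 and the interferon gamma receptor chain Ifngr2 at -1.0 ± 0.32.

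The MHC class I pathway, 14 genes that load peptides from the cytosol, was higher in BAT than in SKM in 8 of the 14 (median 1.27), against 13.9% of all genes. BAT quercetin 3, which holds muscle transcripts, was the highest BAT library in 12 of the 14. Without it 4 of the 14 were called higher (median 0.92), against 14.1% of all genes. WAT was higher than SKM in 13 (median 2.30), against 28.6% of all genes, and BAT was lower than WAT in 6 (median -0.88), against 22%. Without BAT quercetin 3, BAT was lower than WAT in 11, against 23.1% of all genes. With the WAT libraries of flow cell H7GKJDSXX alone, the median of the 14 was 1.78 for WAT over SKM and -0.21 for BAT over WAT. These left-out values were added after seeing the data. Over the 6 WAT libraries the summed class I genes ran from 5739 to 10182 CPM while the summed members ran from 120 to 9392 CPM. The difference between the lists was not tested.

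Quercetin was compared with vehicle within each tissue. In SKM, 0 of the 7 members tested were called, against 0% of 13562 genes. H2-DMb2 did not pass the filter on low counts there, so the count leaves it out. All 7 were above 0, with a median log2 fold change of 1.30 against -0.03 for all genes, and each had an adjusted p of 0.910 in edgeR. H2-DMb1 stood at 1.82 ± 0.73 (SE, unadjusted p = 0.0363), H2-DMa at 1.67 ± 0.75, H2-Ab1 at 1.38 ± 0.79 (95% interval -0.43 to 3.19), Cd74 at 1.28 ± 0.84 and Ciita at 1.13 ± 0.98. Of all tested genes, 406 had an unadjusted p under 0.05, H2-DMb1 being the 1 member among them. All 3 quercetin libraries lay above all 3 vehicle libraries in 5 members, H2-Aa, H2-Ab1, H2-Eb1, H2-DMa and H2-DMb1, against 5.85% of genes tested. Scaled by library totals instead, the count was 3, without H2-Aa and H2-Ab1. Without SKM vehicle 1 the median was 0.82, with 8 of 8 members tested and above 0, Cd74 at 0.74 and H2-Ab1 at 0.86. Ciita ran from 0.46 without SKM quercetin 1 to 1.83 without vehicle 2. Without SKM vehicle 3 and quercetin 2, which hold transcripts of other tissues, the median was 2.07. That fit set the low vehicle 1 and vehicle 2 against quercetin 1 and quercetin 3. The 5 pan-leukocyte markers summed to 5.94, 48.6 and 81.5 CPM with vehicle and to 92.9, 99.0 and 82.7 CPM with quercetin. The 8 B cell markers summed to no more than 1.2 CPM with vehicle and 2.11 to 6.40 CPM with quercetin. Of these 8, 0 passed the filter on low counts, and 5 had no read in SKM vehicle 1. The 8 T cell markers, of which 2 passed this filter, also separated the arms when summed. They came to at most 5.65 CPM with vehicle and at least 7.93 CPM with quercetin. The macrophage and monocyte markers overlapped, with 164 to 773 CPM with vehicle and 505 to 993 CPM with quercetin. So did the 9 dendritic cell markers, with 25.1 to 41.1 CPM against 26.2 to 37.7 CPM. The part of these cell types in the class II values was not tested. An exact permutation test of 3 libraries against 3 cannot give a p below 0.1.

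In WAT, 0 of 8 members were called, against 0% of 14919 genes, and each had an adjusted p of 1.0. At an unadjusted p under 0.05 there were 0 members and 122 genes. Their median was -0.15, with 2 above 0 and 6 below, and 0 of 8 members separated the arms, against 4.44% of genes tested. The intervals were wide, from -3.53 to 2.97 for H2-Ab1 and from -5.59 to 5.19 for H2-DMb2, and each arm holds 1 library of flow cell H7GKJDSXX. The direction turned with the library left out: the median was -1.22 without quercetin 1 and 0.63 without vehicle 2. With flow cell as a term of the fit, chosen after seeing the data, all 8 were above 0 with a median of 0.72 and 0 were called. With limma voom and library weights 0 of 8 were above 0, with a median of -0.84. Within flow cell H7H2WDSXX, with 2 libraries in each arm, the median was -0.23 and 1 of 8 was above 0. The other flow cell has 1 library in each arm and allows no test.

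In BAT, 0 of the 7 members tested were called, against 0% of 13274 genes, with H2-DMb2 again below the filter. All 7 were above 0, with a median of 0.55 against 0.05 for all genes and an adjusted p of 0.977 each. At an unadjusted p under 0.05 there were 0 members and 241 genes. H2-DMb1 stood at 1.01 ± 0.56, H2-Aa at 0.79 ± 0.57 and H2-Eb1 at 0.23 ± 0.48, and the arms of all 8 members overlapped, against 6.19% of genes tested whose arms did not. The values moved with single libraries: without BAT vehicle 1 the median was 0.23, with H2-Eb1 at -0.17, and without BAT quercetin 3 it was 0.40, with H2-DMa at -0.06. Without BAT vehicle 3 the median was 1.18. With limma voom and library weights it was 0.04, with 5 of 7 above 0. DESeq2 and limma voom also called 0 members for quercetin in each of the 3 tissues, and 0 between BAT and SKM.

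**Figure D5:**
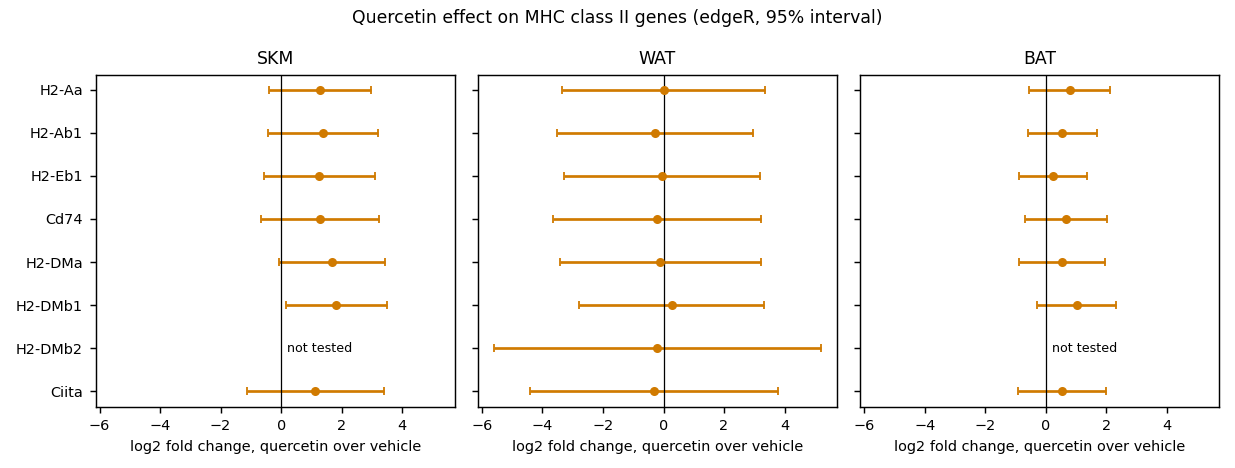
Log2 fold change of each MHC class II gene, quercetin over vehicle, in SKM, WAT and BAT, with 95% intervals from edgeR. Every interval holds 0 except that of H2-DMb1 in SKM (0.15 to 3.50, unadjusted), and the WAT intervals are the widest.

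The quercetin effect did not differ between tissues beyond error. In each of the 3 interaction contrasts 0 of 8 members were called, against 0% of 16388 genes, and all adjusted p were 1.0. The median difference of the effect was 1.55 for SKM minus WAT, 0.78 for BAT minus WAT and 0.88 for SKM minus BAT. No member reached an unadjusted p under 0.05 in any of them, and H2-DMa in SKM minus WAT, at 1.80 ± 1.51, had the smallest, at 0.251.

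No gene of the remaining class II pathway was called for quercetin in any tissue. The 4 with the smallest p in SKM were the endosomal proteases Ctsl at -1.91 ± 0.73 (unadjusted p = 0.0302, adjusted p = 0.910) and Ctsd at -1.15 ± 0.51, Cd86 at 0.96 ± 0.57 and Ifi30 at -1.07 ± 0.65. In WAT they were Nfyb at -0.42 ± 0.29, Nfyc at -0.22 ± 0.24, Jak2 at -0.40 ± 0.46 and Ctsd at -0.39 ± 0.46, with adjusted p of 1.0. In BAT they included Spi1 at 1.27 ± 0.85, Cd40 at 1.34 ± 0.91 and Ifi30 at 0.78 ± 0.55, with adjusted p of 0.977. All 3 stood apart in BAT quercetin 3, which holds muscle transcripts. Spi1 measured 88.6 CPM there and 9.81 to 17.3 CPM in the other 5 BAT libraries. Cd40 measured 6.58 CPM against 0.708 to 1.30 CPM, and Ifi30 35.0 CPM against 9.25 to 14.2 CPM. Over the 3 interactions, Ctsd in SKM minus BAT, at -1.40 ± 0.63 (unadjusted p = 0.0421, adjusted p = 1.0), was the single gene of the 29 with an unadjusted p under 0.05.

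BAT quercetin 3 was the highest BAT library for a larger share of the class I genes than of the members. In it 12 of the 14 class I pathway genes were the highest of the 6 BAT libraries, against 25.8% of the 13274 genes tested. The immunoproteasome subunit Psmb8 measured 168 CPM there and 5.41 to 15.2 CPM in the other 5 BAT libraries. The peptide transporter Tap1 measured 174 CPM against 12.9 to 31.2 CPM. Of the 8 members, 4 were highest in this library, as were 17 of the 31 other class II pathway genes. The 4 members stood out by less than Psmb8 and Tap1: H2-DMb1 measured 12.9 CPM against 2.91 to 6.65 CPM, and H2-Aa 88.9 CPM against 12.6 to 68.2 CPM. H2-Ab1, H2-Eb1, H2-DMb2 and Ciita lay within the range of the other 5, and Ciita was at 1.25 CPM. This library also held the muscle transcripts given above, with pan-leukocyte markers at 324 CPM against 41.4 to 78.8 CPM, and their part was not tested.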

How the data were processed

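The authors deposited raw gene counts, 1 table per library, with no normalization. Per the submitters' processing notes, HISAT2, HTSeq, DESeq2 and the mm10 build were used; tool versions, gene annotation and counting strand were not stated. The members and all gene lists were chosen with earlier results of these data known. Besides the members, the rule for named genes took the 4 genes of the remaining class II pathway with the smallest p in each contrast and the 10 genes most like the members; others were named after their values had been seen, and some genes are not reported here.

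Groups came from the sample labels, and 0 count columns were left unassigned. Gene positions and lengths came from GENCODE M21 and promoters from RefSeq. Genes were kept by filterByExpr (minimum count 10, minimum total 15). The counts were tested with edgeR 4.0.16 (R 4.3.3; TMM, quasi-likelihood F test, Benjamini-Hochberg adjustment over all genes tested, threshold 0.05): quercetin against vehicle on the 6 libraries of a tissue, tissues and interactions on all 18. CPM used TMM factors over the 18 libraries, and likeness used log2 CPM with a prior count of 2. DESeq2 1.42.0, limma 3.58.1 voom with library weights, other scalings, no filter, left-out libraries, flow cells and a replicate block were alternatives. The test scripts were checked on simulated counts.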

Additional observations from a re-analysis of the deposited data

How the results depend on the processing

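Member values kept their direction and side of the threshold in 924 alternatives, turned in 80 and lost the call in 19; counts stayed within 1.5 times in 406 and moved further in 20. The causes were not tested. Of genes called, BAT minus SKM (4461) gave 7451 with limma voom and 871 with vehicle libraries alone; BAT minus WAT (6604) gave 11053, 1442, and 1357 with WAT of flow cell H7GKJDSXX alone; WAT minus SKM (8251) gave 3091 with vehicle alone and 4038 with WAT of H7GKJDSXX alone. Members called fell to 1 (BAT minus WAT, vehicle alone) and to 0 in both WAT comparisons with WAT of H7GKJDSXX alone. DESeq2 called 13 genes (BAT minus WAT), 7 (SKM minus WAT) and 2 (SKM minus BAT, Ighv5-15 and Igkv4-53) for the interactions, 2 for quercetin in BAT (Alb and Slc25a34) and 7 in WAT. Limma voom called 2 (Tmem56 among them) and 3 (Lpar3 and Gm2004 among them) for the interactions BAT minus WAT and SKM minus WAT. Without the low-count filter, 32 genes were called for quercetin in SKM. Leaving out libraries 1 at a time gave 0 to 1 genes for quercetin in BAT, the 1 being Gm12033 without BAT quercetin 3, also without the libraries holding other tissues' transcripts (SKM vehicle 3, SKM quercetin 2, WAT vehicle 2, BAT quercetin 3). These genes were named after their values were seen.

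Directions turned mainly where differences were near 0. For BAT minus SKM, Cd74 was at 0.039 (H7H2WDSXX alone), 0.10 (voom), 0.26 (vehicle alone) and 0.44 (replicate block); Ciita at 0.10 and H2-DMb2 at 0.51 (block), with H2-DMb2 at 0.18 (H7H2WDSXX alone). H2-Ab1 was at -0.026 with DESeq2 and with its size factors in edgeR, and at -0.029 with library totals. With flow cell as a term, H2-Aa was at -0.32, H2-Ab1 at -0.46, H2-DMa at -0.44 and H2-Eb1 at -0.027, and without the libraries of other tissues' transcripts H2-DMa at -0.015. With WAT of H7GKJDSXX alone, H2-DMb2 was at 1.22 for BAT minus WAT, and Ciita at -0.41 and H2-DMb2 at -1.56 for WAT minus SKM. For quercetin in BAT, H2-DMa was at -0.19 and H2-Eb1 at -0.19 with voom, and H2-DMa at -0.057 without those libraries. For quercetin in WAT, flow cell as a term put Cd74 at 0.75, Ciita at 0.69, H2-Ab1 at 0.67, H2-DMa at 0.66, H2-DMb2 at 0.62 and H2-Eb1 at 0.78; leaving out WAT vehicle 2 put them at 0.49, 0.48, 0.38, 0.63, 0.80 and 0.62. H2-Aa in WAT was at -0.14 (H7H2WDSXX alone), -0.0030 (library totals), -0.82 (voom) and -0.24 (block), and H2-DMb1 at -0.62 (voom) and -0.11 (block).

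With 1 library left out at a time, BAT minus SKM ran from -0.35 to 0.23 for Cd74, -0.11 to 0.49 for H2-Aa, -0.31 to 0.32 for H2-Ab1, -0.17 to 0.37 for H2-DMa and -0.85 to 0.32 for H2-DMb2. Quercetin in BAT ran from -0.057 to 1.12 for H2-DMa and -0.17 to 0.60 for H2-Eb1. Quercetin in WAT ran from -1.35 to 0.49 for Cd74, -1.17 to 0.48 for Ciita, -1.24 to 0.65 for H2-Aa, -1.19 to 0.38 for H2-Ab1, -1.40 to 0.63 for H2-DMa, -1.03 to 0.85 for H2-DMb1, -1.98 to 0.80 for H2-DMb2 and -1.20 to 0.62 for H2-Eb1.

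Whether replicate numbers pair libraries was checked by the correlation of deviations from group means, with 0.1 as the least value for every pair. Vehicle and quercetin libraries of the same number did not meet it in any tissue. Across tissues, where the titles share numbers, vehicle libraries met it for SKM with WAT (0.178, 0.278 and 0.298) and SKM with BAT (0.242, 0.125 and 0.257), but not for WAT with BAT, and quercetin libraries met it for none, so no comparison over both arms met it. With the replicate block the median of the members for quercetin was 1.78 in SKM, -0.23 in WAT and 0.76 in BAT with 0 called, and 8, 8 and 0 members were called for WAT minus SKM, BAT minus WAT and BAT minus SKM, with medians of 4.06, -3.48 and 0.50 (8 of 8 above 0 in the last). With library totals the median of all genes moved to 0.85 for WAT minus SKM (members 5.04) and to -0.72 for BAT minus WAT (members -4.90). Depth limits H2-DMb2 and Ciita, which have few or no reads in SKM and BAT.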
